A study of Mus musculus with 10 samples.

Results

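ChREBP, the SREBPs and the liver X receptors (LXRs) are the transcription factors that set the rate of fatty acid and sterol synthesis. The results below concern 10 genes of this system, listed by name with earlier results of these data known: Mlxipl, which encodes ChREBP, its partner Mlx and its relative Mlxip, Srebf1, Srebf2, Scap, Insig2, the LXR genes Nr1h3 and Nr1h2, and the lipogenic cofactor Thrsp. Of these, 9 had a probe set naming that gene alone with a value on all 10 arrays, out of 19659 genes measured in that way. No probe set in the annotation used here named Nr1h2, so it is not analysed here. Each of the 9 was read by 1 probe set, so transcripts from alternative starts of 1 gene, such as those of Srebf1 and Mlxipl, were not told apart.

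RNA came from the inguinal-femoral subcutaneous fat of 10 untreated, chow-fed female F2 mice aged 14 weeks. FF mice (5) carried 2 Fat-line alleles at the obesity locus Fob3a, and VV mice (5) carried 2 alleles of the V line, which the source labels also call the Lean-line allele. The V line was a congenic line derived from a recombinant within Fob3a by 11 to 12 backcrosses to the Fat line, with marker-assisted removal of other obesity loci. The genotype labels cover the locus as a whole and not any single gene in it, and the comparison asks which genes of fat differ between its 2 homozygous genotypes.

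ChREBP binds DNA as a heterodimer with Mlx and responds to products of glucose metabolism. SREBPs are made as membrane proteins, escorted by Scap from the endoplasmic reticulum to the Golgi for cleavage, and held back by the Insig proteins when sterols are plentiful. LXRs are nuclear receptors for oxidised sterols that pair with retinoid X receptors and, in liver, drive transcription of Srebf1. In fat, ChREBP and SREBP-1 are known for their control of de novo lipogenesis, and Thrsp is a thyroid hormone and carbohydrate responsive gene of lipogenic tissues.

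The start regions of the 3 genes with the largest differences are shown first, since known binding letters of the system can be read in them. RefSeq start regions on GRCm38.p6 were found for all 10 genes, as 17 windows of 250 bases before and 50 bases after an annotated start. The letters sought were the E-box CACGTG, a short form of the sterol regulatory element, TCACNCCAC, and the CCAAT box bound by NF-Y. The E-box is part of sites that ChREBP and SREBP-1 bind in other promoters. Capitals mark the letters found on either strand. The windows printed are those of Mlxipl, Srebf1 and Thrsp that hold at least 1 of these.
Mlxipl, upstream start, chr5:135089640-135089939, plus strand: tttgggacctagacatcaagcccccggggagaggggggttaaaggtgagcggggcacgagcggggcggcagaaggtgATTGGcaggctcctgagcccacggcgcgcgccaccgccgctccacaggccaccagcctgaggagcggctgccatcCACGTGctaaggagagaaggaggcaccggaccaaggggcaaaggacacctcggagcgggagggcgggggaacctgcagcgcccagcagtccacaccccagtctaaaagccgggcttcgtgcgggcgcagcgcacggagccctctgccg
Mlxipl, downstream start, chr5:135106641-135106940, plus strand: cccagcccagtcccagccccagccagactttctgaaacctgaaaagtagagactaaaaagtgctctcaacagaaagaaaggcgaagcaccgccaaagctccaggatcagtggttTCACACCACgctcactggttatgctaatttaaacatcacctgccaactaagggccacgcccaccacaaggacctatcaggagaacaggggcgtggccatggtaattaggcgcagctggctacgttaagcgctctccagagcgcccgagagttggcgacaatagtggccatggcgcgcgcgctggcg
Srebf1, upstream start, chr11:60222532-60222831, minus strand: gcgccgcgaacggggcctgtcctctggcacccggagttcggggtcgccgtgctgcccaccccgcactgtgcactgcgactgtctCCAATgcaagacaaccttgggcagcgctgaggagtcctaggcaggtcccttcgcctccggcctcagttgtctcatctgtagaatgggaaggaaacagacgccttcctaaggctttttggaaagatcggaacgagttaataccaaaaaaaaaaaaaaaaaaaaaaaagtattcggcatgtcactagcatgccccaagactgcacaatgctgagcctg
Srebf1, downstream start, chr11:60210422-60210721, minus strand: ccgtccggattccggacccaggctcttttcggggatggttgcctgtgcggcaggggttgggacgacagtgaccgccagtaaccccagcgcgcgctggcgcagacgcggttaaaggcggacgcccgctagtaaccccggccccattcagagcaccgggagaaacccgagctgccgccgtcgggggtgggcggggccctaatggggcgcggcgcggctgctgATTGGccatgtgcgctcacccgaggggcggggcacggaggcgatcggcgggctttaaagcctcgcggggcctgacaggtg
Thrsp, chr7:97417501-97417800, minus strand: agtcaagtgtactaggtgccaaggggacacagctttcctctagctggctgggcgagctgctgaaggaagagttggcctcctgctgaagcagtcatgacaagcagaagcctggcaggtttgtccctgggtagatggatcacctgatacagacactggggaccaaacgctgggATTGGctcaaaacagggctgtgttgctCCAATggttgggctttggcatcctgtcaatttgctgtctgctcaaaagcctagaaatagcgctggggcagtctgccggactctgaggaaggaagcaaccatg

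The Mlxipl window at the upstream start held an E-box that began 98 bases before the start. The search was for these letters alone, and whether any factor binds them here was not tested. The E-box lay in 7.15% of all 32851 start regions of this length, and also in 1 window of Mlx and both overlapping windows of Scap. TCACNCCAC lay in 1.24% of all windows and, among these genes, only in the downstream window of Mlxipl. The CCAAT box, present in 37.4% of all windows, lay in 8 of the 17, including that of Thrsp, which held it on both strands. None of the 3 was in the remaining Srebf1 window, in 2 windows of Insig2 or in those of Nr1h3 and Nr1h2, which says only that these letters are not in these windows.

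Markers of white fat were high in every mouse: the mean log2 intensity of 11 adipocyte genes ran from 12.94 to 13.05 in FF mice and from 12.90 to 13.03 in VV mice. Signals are log2 values that the authors normalised between arrays, and their number limits how precisely each difference is known. RNA of other tissues was present in single mice. The mean of 19 liver genes was 11.17 in VV replicate 1 and at most 7.81 in any other mouse, and the mean of 20 skeletal muscle genes was 9.05 in FF replicate 1 and at most 7.44 in any other mouse. The mean of 14 leukocyte genes lay between 8.86 and 9.21 in FF and between 9.36 and 9.77 in VV, and that of 14 mammary epithelial genes between 6.64 and 6.75 in FF and between 6.67 and 6.77 in VV. The mean of 13 brown and beige adipocyte genes lay between 8.55 and 9.44 in FF and between 7.16 and 7.77 in VV. The part of these other cells in the results below was not tested.

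Mlxipl rose in FF fat. Its log2 intensities were 11.34, 11.17, 10.60, 11.04 and 10.84 in FF mice (replicates 1 to 5), against 10.27, 9.94, 10.03, 10.06 and 10.19 in VV mice. Every FF mouse lay above every VV mouse, and the closest were FF replicate 3 and VV replicate 1, in which liver RNA was most abundant. FF mice averaged 11.00 ± 0.29, against 10.10 ± 0.13 for VV mice (SD, n = 5 each). This is 0.90 ± 0.13 (SE) higher in FF on the log2 scale. The ratio of FF to VV was 1.87 (95% interval 1.54 to 2.26), and limma gave an adjusted p of 0.0245 over all genes and rank 16 by p. In a bulk sample, more cells that use a gene and more of its RNA per cell cannot be told apart. The direction held whichever mouse was left out (0.81 to 1.00), but Mlxipl no longer passed when FF replicate 2 (adjusted p = 0.0708), VV replicate 2 (0.0806), VV replicate 4 (0.0747) or VV replicate 5 (0.0630) was omitted. With the mouse richest in muscle RNA and the one richest in liver RNA both omitted, the difference was 0.86 with an adjusted p of 0.0331 in limma.

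Of the 9 measured genes, 1, Mlxipl, was past the threshold, an adjusted p of 0.05 in limma over all genes, and the background share was 0.753% of genes in either direction, 0.621% higher and 0.132% lower in FF. At an unadjusted p of 0.05 the count was 3 of 9, all higher in FF, where 16.4% of all genes passed, 10.2% higher and 6.18% lower in FF. FF and VV mice did not overlap for 2 of the 9, Mlxipl and Srebf1, both with FF above, against 4.7% of all genes in either direction, 3.36% with FF above and 1.34% with FF below. The difference was positive for 8 of the 9 genes, where 50.3% of all genes had a positive difference. The median over the 9 was 0.14, and over all genes 0.00081.

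**Figure D1:**
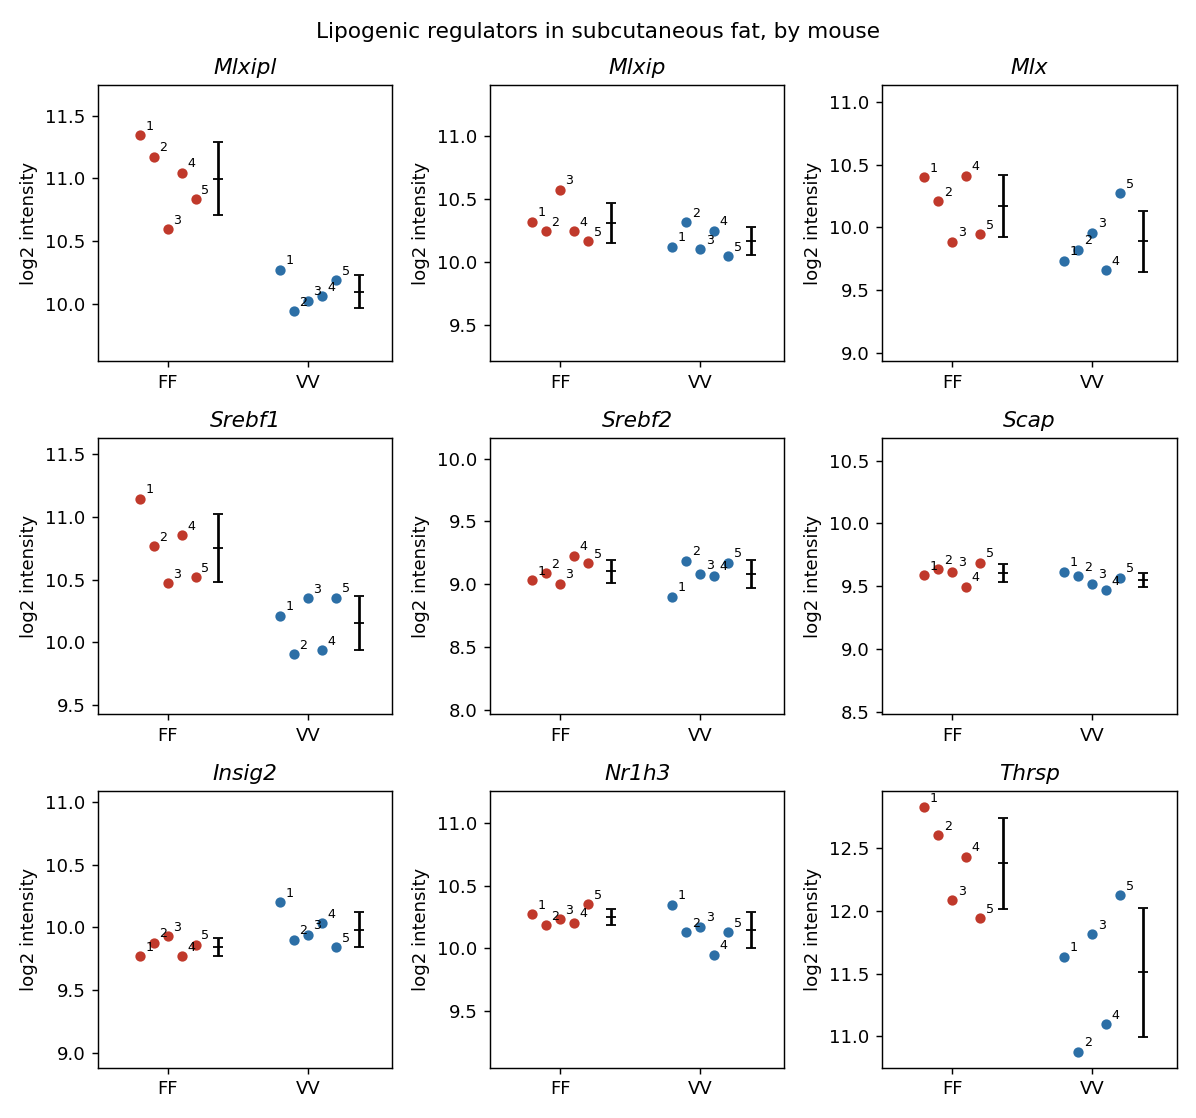
Log2 intensity (vertical axis, the same span of 2.2 units in each panel) of the 9 measured regulators in FF mice (left, red) and VV mice (right, blue); each point is 1 mouse, marked with its replicate number, and the black bar gives the mean ± SD. FF and VV mice separate for Mlxipl and Srebf1, nearly so for Thrsp, and overlap for the other 6 genes.

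Neither Mlx nor Mlxip passed the test. Mlx, the obligate dimer partner, read 10.40, 10.21, 9.89, 10.41 and 9.95 in FF mice, against 9.73, 9.82, 9.96, 9.66 and 10.27 in VV mice. FF replicates 2, 3 and 5 lay inside the VV range, and VV replicate 5 was above all 3. The difference was 0.28 ± 0.14 (SE), with a 95% interval from -0.02 to 0.58 and an adjusted p of 0.338 in limma. Mlxip, which encodes the ChREBP relative MondoA, read 10.32, 10.24, 10.57, 10.24 and 10.17 in FF mice, against 10.12, 10.32, 10.10, 10.25 and 10.04 in VV mice. Its highest value was in FF replicate 3, the FF mouse with the lowest Mlxipl. The Mlxip difference was 0.14 (95% interval -0.04 to 0.32, adjusted p = 0.424 in limma).

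Mlxipl and Mlxip differed unequally between the genotypes. Taken within each mouse, the log2 value of Mlxipl minus that of Mlxip averaged 0.69 ± 0.40 in FF mice, against -0.07 ± 0.22 in VV mice (SD, n = 5 each). The value was thus 0.76 larger in FF. A two-sided exact permutation test over all assignments of mice to groups gave p = 0.0238, also 0.0238 after adjustment over the 2 pairs of relatives that could be run. The groups overlapped slightly, since FF replicate 3 had 0.02 and the highest VV mouse 0.15. Left out in turn, single mice moved the value between 0.67 and 0.92, with adjusted p between 0.00794 and 0.0317. With the mouse richest in muscle RNA and the one richest in liver RNA both omitted, it was 0.73 and missed the threshold (exact permutation, adjusted p = 0.0571).

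Srebf1 and Srebf2 encode the SREBP precursors, of which SREBP-1 acts mainly on fatty acid genes and SREBP-2 on cholesterol genes. Srebf1 read 11.14, 10.77, 10.47, 10.85 and 10.52 in FF mice, against 10.21, 9.91, 10.35, 9.94 and 10.36 in VV mice. All FF mice lay above all VV mice, with FF replicate 3 and VV replicate 5 closest. FF mice averaged 10.75 ± 0.27, against 10.15 ± 0.22 for VV mice (SD, n = 5 each). The difference of 0.60 ± 0.14 (SE), or 1.51-fold with a 95% interval from 1.23 to 1.87, missed the threshold (adjusted p = 0.0692 in limma). It passed without FF replicate 3 (adjusted p = 0.0438), and over all alternatives the adjusted p ran from 0.0390 to 0.200.

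Srebf2, which lies on chromosome 15 as Deptor and Fob3a do, read 9.03, 9.09, 9.00, 9.23 and 9.17 in FF mice, against 8.90, 9.19, 9.08, 9.07 and 9.17 in VV mice. The 2 sets of values interleave. Its difference was 0.02, with a 95% interval from -0.12 to 0.17 (adjusted p = 0.904 in limma), so a change beyond 1.12-fold upward or 0.919-fold downward lay outside the interval. Srebf1 and Srebf2 differed unequally between the genotypes: the within-mouse difference Srebf1 minus Srebf2 was larger in FF by 0.57, and its FF values (1.35 to 2.11) lay above its VV values (0.72 to 1.31). The two-sided exact permutation p was 0.00794, the smallest that 5 mice against 5 allow, and 0.0159 after adjustment over the 2 pairs. With FF replicate 1 and VV replicate 1 both omitted, the difference of the pair was 0.52 and missed the threshold (exact permutation, adjusted p = 0.0571). The FF values still lay above the VV values, and fewer mice raise the smallest p that this test can give. Deptor, the gene named in the series title, was higher in FF by 0.55 ± 0.06 (SE; adjusted p = 0.00553 in limma).

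Scap and Insig2 control whether SREBPs leave the endoplasmic reticulum. Scap, the escort, read 9.59, 9.63, 9.61, 9.49 and 9.69 in FF mice, against 9.62, 9.58, 9.52, 9.47 and 9.57 in VV mice. Its difference was 0.05 with a 95% interval from -0.05 to 0.16 (adjusted p = 0.623 in limma). Insig2, which retains Scap, read 9.77, 9.88, 9.93, 9.77 and 9.86 in FF mice, against 10.20, 9.90, 9.94, 10.03 and 9.84 in VV mice. It was the only member with a negative difference, -0.14 (95% interval -0.29 to 0.01, adjusted p = 0.337 in limma). The highest Insig2 value was in VV replicate 1, where liver RNA was also highest, and without that mouse the difference was -0.09.

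Nr1h3 encodes LXRalpha, an LXR found in adipocytes, liver and macrophages, and the only LXR gene measured here. It read 10.27, 10.19, 10.23, 10.20 and 10.35 in FF mice, against 10.35, 10.13, 10.17, 9.95 and 10.13 in VV mice. The groups overlap because of VV replicate 1, which matched the highest FF mouse, and the other 4 VV mice were all below the lowest FF mouse. The difference was 0.10 (95% interval -0.05 to 0.25, adjusted p = 0.502 in limma). Without VV replicate 1 it was 0.15 with an adjusted p of 0.226, the lowest over its alternatives, whose highest was 0.762.

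Thrsp, a nuclear protein of lipogenic tissues, read 12.83, 12.60, 12.09, 12.43 and 11.94 in FF mice, against 11.63, 10.88, 11.82, 11.10 and 12.12 in VV mice. Only VV replicate 5 reached into the FF range, above FF replicates 3 and 5. Thrsp averaged 12.38 ± 0.36 in FF mice, against 11.51 ± 0.51 in VV mice (SD, n = 5 each). The difference was 0.87 ± 0.24 (SE), or 1.83-fold with a 95% interval from 1.26 to 2.65. Its fold was close to that of Mlxipl, but the mice of each group were more spread, and the adjusted p of 0.110 in limma missed the threshold, as it did in all alternatives run at 0.05 (0.0657 to 0.243).

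**Figure D2:**
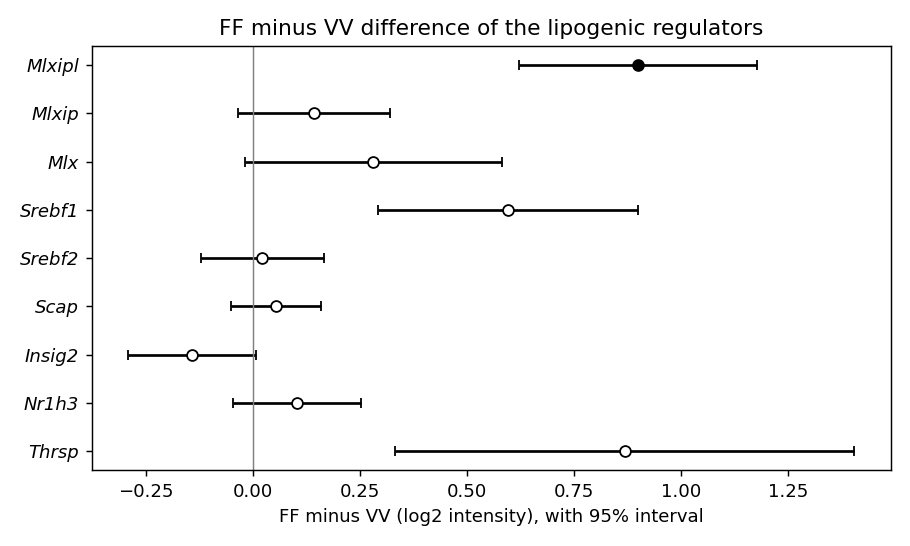
FF minus VV difference (horizontal axis, log2 intensity) of each measured regulator with its 95% interval; the filled point passed an adjusted p of 0.05 over all genes and open points did not. Mlxipl, Srebf1 and Thrsp lie between 0.60 and 0.90 with intervals above 0, and the other 6 lie between -0.14 and 0.28 with intervals that include 0.

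Within the genotypes, some of these genes varied together from mouse to mouse. Values were taken as deviations from the group mean, so the genotype difference does not enter, and all 36 pairs were tested by exact permutation of mice within groups (two-sided, n = 10 mice). Srebf1 and Thrsp had the highest Pearson correlation, r = 0.915 (exact permutation p = 0.000833, adjusted over the 36 pairs p = 0.0300), with Spearman's rho of 0.867 (exact permutation p = 0.00319, adjusted p = 0.108). Without FF replicates 1 and 3, the mice farthest from the median of Srebf1, r was 0.950. It was the only pair past the threshold by Pearson's r, and none passed by Spearman's rho.

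The next highest correlation was that of Mlx and Srebf1, r = 0.821 (exact permutation p = 0.00924) and rho = 0.830 (exact permutation p = 0.00896), with adjusted p of 0.0999 and 0.108. Mlxipl correlated with Srebf1 at r = 0.792 and rho = 0.733 (exact permutation p = 0.0148 and 0.0343, adjusted p = 0.0999 and 0.205), and r was 0.590 without FF replicates 1 and 3. The most negative pair was Srebf2 and Insig2, r = -0.797 and rho = -0.806 (exact permutation p = 0.0138 and 0.00701, adjusted p = 0.0999 and 0.108), and r was -0.594 without FF replicate 4 and VV replicate 1. FF replicate 1 had the highest Mlxipl, Srebf1 and Thrsp of all mice and also the most muscle RNA.

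**Figure D3:**
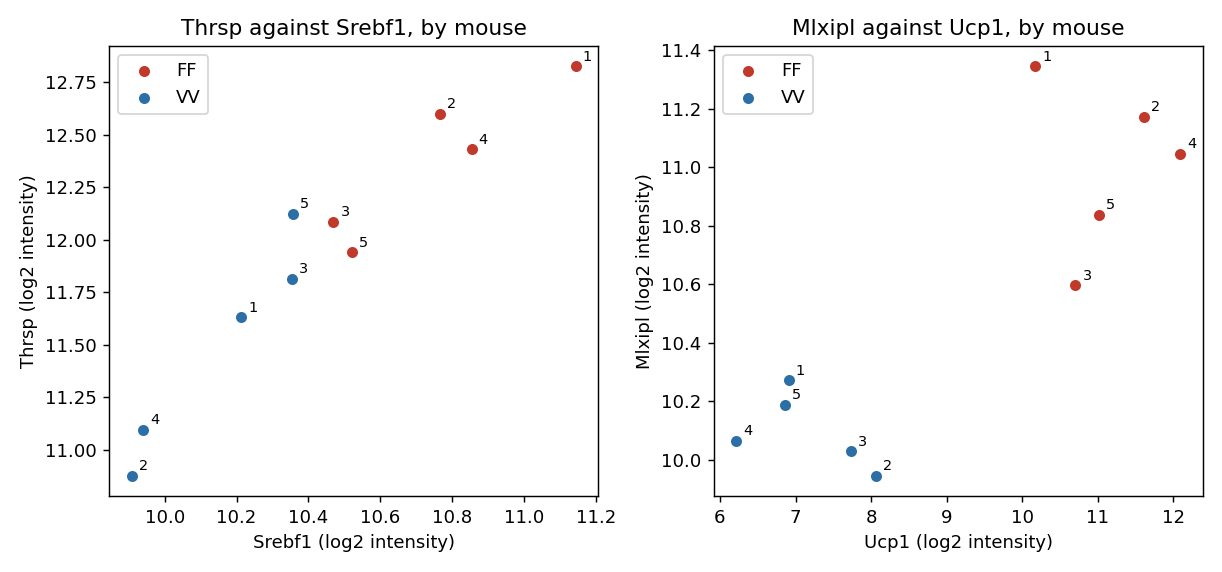
Left, Thrsp against Srebf1, and right, Mlxipl against Ucp1, both as log2 intensity; each point is 1 mouse with its replicate number, FF in red and VV in blue. Thrsp and Srebf1 rank the mice almost alike within each genotype, and FF replicate 1 has the highest Mlxipl (11.34) and the lowest Ucp1 of the FF mice (10.17).

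Ucp1, the uncoupling protein of thermogenic fat, separated the genotypes by 3.96 ± 0.41 (SE) on the log2 scale (adjusted p = 0.00553 in limma). FF replicate 4 had the highest Ucp1 (12.09) with a Mlxipl of 11.04, and FF replicate 1, the mouse with the most muscle RNA, had the lowest Ucp1 of the FF mice with the highest Mlxipl. The other FF mice ranked 2, 4, 5, 3 by Mlxipl and 4, 2, 5, 3 by Ucp1, from high to low. The VV mice ranked 1, 5, 4, 3, 2 by Mlxipl and 2, 3, 1, 5, 4 by Ucp1. VV replicate 2 thus had the highest Ucp1 of the VV mice (8.06) and the lowest Mlxipl (9.94). The relation of the pair was not tested. Genes whose deviations were most like those of a regulator over the 10 mice were picked as the 3 highest Pearson correlations among all genes, so these values are high by choice and carry no test. For Thrsp they were Gbe1, the glycogen branching enzyme (r = 0.972), Slc25a1, the mitochondrial citrate carrier (0.966), and Sccpdh (0.965). For Srebf1 they were Aacs, acetoacetyl-CoA synthetase (0.968), Pla2g2a, a secreted phospholipase (0.966), and Nhp2, a small nucleolar ribonucleoprotein component (0.956). Those of Mlxipl were Marveld3 (0.953), Atrn (0.945) and Doc2g (0.939), and those of Nr1h3 were Ddt (0.950), Car1 (0.945) and Slc38a6 (0.942).

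Genes around the regulators were then read from the same fit. Over all genes, 0.621% passed the threshold with FF higher and 0.132% with FF lower. Among known ChREBP targets 1 of 19 measured genes rose and none fell: Acacb, the acetyl-CoA carboxylase of the mitochondrial surface, which differed by 1.34 ± 0.18 (SE), or 2.53-fold (adjusted p = 0.0219 in limma). It read 11.42, 11.00, 10.77, 11.47 and 10.98 in FF mice, against 9.89, 9.60, 10.10, 9.24 and 10.11 in VV mice, with no overlap. Acaca, the cytosolic carboxylase, and Tkt, the transketolase of the pentose phosphate pathway, differed by 0.71 and 0.72 (adjusted p = 0.115 and 0.129 in limma). At an unadjusted p under 0.05, 7 of the 19 were higher in FF and none lower, against 10.2% and 6.18% of all genes. Of these 7, only Tkt is not also in the SREBP-1 target list read below. The differences were positive for 10 of the 19, against 50.3% of all genes, and the list median was 0.03. The mean level of the list was 10.31 in VV replicate 1, where liver RNA was also highest. It lay between 9.77 and 10.07 in the other VV mice and reached at most 10.24 in FF mice. Without VV replicate 1 the list median was 0.04. The part of liver RNA in these values was not tested.

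The SREBP-1 target list shares 7 measured genes with that list, including Acacb, which is 7 of its 16 and 7 of the 19 ChREBP targets. Of the 16, 1 rose, Acacb, 15 had a positive difference, and 10 had an unadjusted p under 0.05, all higher in FF. Apart from Tkt, the 7 ChREBP targets higher at that p are all among these 10, so these counts are not independent. Over all genes 0.621% rose, 50.3% had a positive difference and 10.2% were higher at that unadjusted p. The median difference was 0.39, and it stayed between 0.30 and 0.46 whichever mouse was left out. Aacs, which makes acetoacetyl-CoA for lipid synthesis, differed by 0.72 (adjusted p = 0.103 in limma). Acacb no longer passed when FF replicate 1 or 2 or VV replicate 2 was omitted, and no gene of either list then did. The same held with FF replicate 1 and VV replicate 1, the mice richest in muscle and in liver RNA, both omitted.

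Among SREBP-2 targets none of 18 measured genes passed, 4 had an unadjusted p under 0.05, all higher in FF, and 16 differences were positive, with a median of 0.24. Over all genes 10.2% were higher at that p and 50.3% had a positive difference. Fdft1, the squalene synthase, differed by 0.42, Msmo1, a sterol oxidase, by 0.34 and Dhcr7, the last reductase of cholesterol synthesis, by 0.43 (adjusted p = 0.0844, 0.139 and 0.164 in limma). FF replicate 3 had the lowest level of this list among FF mice, 9.14, below that of 4 of the VV mice. This list and Srebf2 itself differed in size, at 0.24 for the median against 0.02, and that gap was not tested.

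No LXR target passed. Of 14 measured genes none had an unadjusted p under 0.05, where 16.4% of all genes did. Of the 14 differences, 6 were positive (50.3% over all genes), and the median was -0.06. Apoe, an apolipoprotein of fat and macrophages, differed by -0.17, Smpdl3a, a sphingomyelinase-like enzyme, by -0.11 and Abcg1, a sterol exporter, by -0.18 (adjusted p = 0.389, 0.444 and 0.453 in limma). The list level was 11.17 in VV replicate 1 and between 10.46 and 10.55 in the other VV mice. Liver RNA was highest in the same mouse, and its part in the values of this list was not tested. Without VV replicate 1 the median of the LXR targets was -0.02.

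No partner or processing factor passed either. Of 12 measured LXR partners and cofactors none passed, while 3 of them were higher and 1 lower at an unadjusted p under 0.05 (10.2% and 6.18% of all genes). The 3 were the retinoid X receptors Rxrg (0.37), Rxra (0.15) and Rxrb (0.15), with adjusted p of 0.130, 0.134 and 0.204 in limma. FF and VV mice did not overlap for Rxra, at 10.21 to 10.39 in FF and 10.05 to 10.18 in VV, nor for Rxrb, at 8.34 to 8.58 in FF and 8.19 to 8.33 in VV, where 3.36% of all genes lay apart with FF above. The lower gene, Tbl1x, named after its value was seen, differed by -0.12 (adjusted p = 0.277 in limma). The list median was 0.05.

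In the SREBP processing list none of 15 passed, 3 were higher and 1 was lower at an unadjusted p under 0.05 (10.2% and 6.18% of all genes), and the median was 0.02. Lpin1, a phosphatidate phosphatase that also restrains nuclear SREBP, differed by 0.41, Ufd1, a factor of protein degradation at the endoplasmic reticulum, by 0.29 and Spring1, a regulator of SREBP cleavage, by 0.23 (adjusted p = 0.0964, 0.119 and 0.181 in limma). The lower gene, Mbtps1, named after its value was seen, differed by -0.11 (adjusted p = 0.261 in limma). Insig1, the SREBP-induced relative of Insig2, was also named after its value was seen. It differed by 0.44 ± 0.25 (SE), opposite in sign to Insig2, with an adjusted p of 0.435 in limma.

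In the MLX network none of 12 passed, 1 was higher at an unadjusted p under 0.05, a share near the 10.2% of all genes, and the median was 0.04. Max, the dimer partner of Myc and Mxd proteins, differed by 0.17, the ChREBP cofactor Hcfc1 by 0.09 and Mycl by 0.23 (adjusted p = 0.197, 0.370 and 0.477 in limma). In the thyroid hormone list, which bears on Thrsp, none of 7 passed, 2 were higher at an unadjusted p under 0.05 (10.2% of all genes), and the median was 0.12. Dio2, the activating deiodinase, differed by 0.17, Klf9, a thyroid hormone responsive factor, by 0.27 and Mid1ip1, the paralogue of Thrsp, by 0.42 (adjusted p = 0.281, 0.285 and 0.338 in limma).

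Glucose entry and phosphorylation feed ChREBP its signals. The largest difference in the list of these genes was that of Slc2a5. None of 10 measured genes passed the threshold over all genes, 3 were higher and 2 lower at an unadjusted p under 0.05 (10.2% and 6.18% of all genes), and the median was 0.13. Slc2a5, a fructose transporter, read 10.62, 10.64, 9.47, 10.44 and 9.25 in FF mice, against 8.67, 7.94, 8.49, 7.75 and 9.25 in VV mice, a difference of 1.66 ± 0.35 (SE; adjusted p = 0.0547 in limma). Hk2, a hexokinase, and Slc2a4, a glucose transporter that insulin moves to the cell surface, differed by 0.68 and 0.54 (adjusted p = 0.0545 and 0.0756 in limma). In all 3, every FF mouse lay above every VV mouse. For Slc2a5 the nearest, FF replicate 5 (9.248) and VV replicate 5 (9.245), were almost equal. The 2 lower genes, named after their values were seen, were the hexokinases Hk1 (-0.13) and Hk3 (-0.23), with adjusted p of 0.232 and 0.225 in limma. Hk1 did not overlap either, at 12.08 to 12.14 in FF and 12.15 to 12.41 in VV. Thus 3 of the 10 lay apart with FF above and 1 with FF below, against 3.36% and 1.34% of all genes. Without FF replicate 3, 2 of the 10 genes passed, and with each array centred on its median 3 did. Over all genes, 379 and 601 passed in these settings, against 148 in the reported fit. In 13 of the 19 alternatives run at 0.05, none of the 10 passed.

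**Figure D4:**
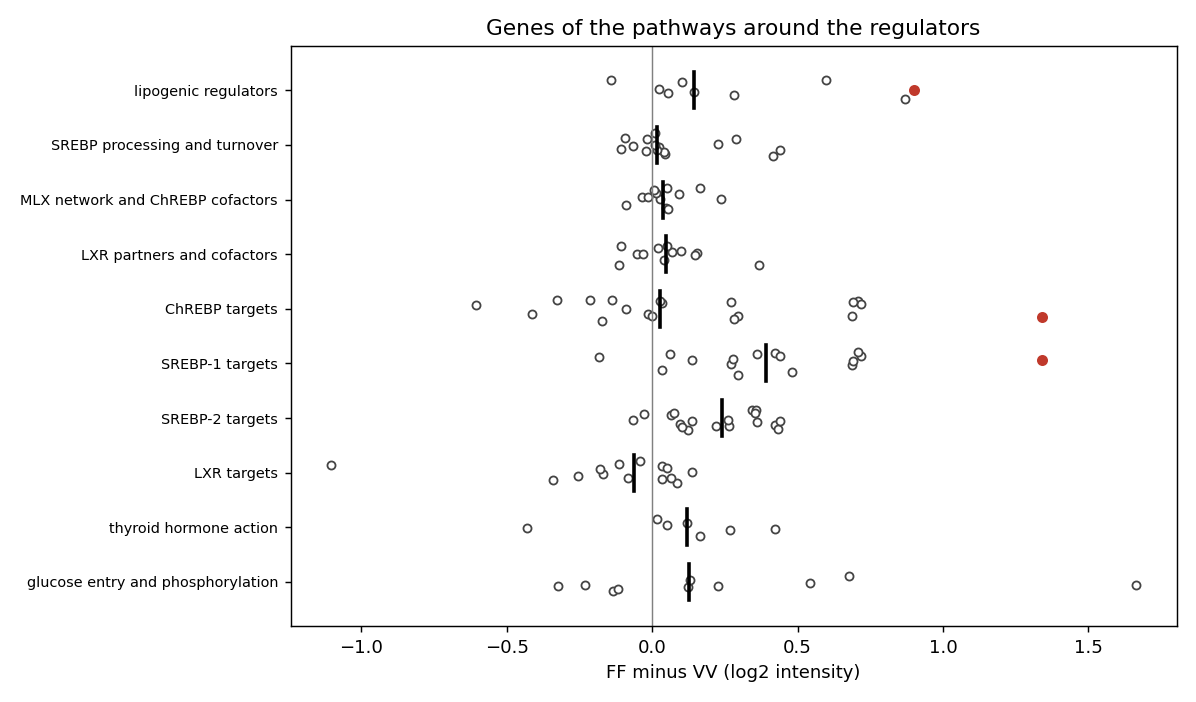
FF minus VV difference (horizontal axis, log2 intensity) of each measured gene of the regulators and of the 9 lists around them; each point is 1 gene, filled where the adjusted p over all genes was under 0.05, and the black bar is the list median. The filled points are Mlxipl and Acacb, which is in both the ChREBP and SREBP-1 target lists, and the medians run from -0.06 for LXR targets to 0.39 for SREBP-1 targets.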

How the data were processed

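Values were deposited as log2 intensities after RMA, which the authors ran to normalise arrays and summarise probe sets, per the submitters' processing notes; the RMA version and genome build are not stated in the sources. Of 35557 probe sets, 25689 had values on all 10 arrays and 20777 of these named 1 gene. The probe set with the highest mean stood for a gene, which left 19659 genes. Gene symbols and chromosomes came from RefSeq (GRCm38.p6).

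The groups were compared by limma 3.58.1 in R 4.3.3, using lmFit and eBayes without covariates. P-values were two-sided and adjusted by Benjamini-Hochberg across the 19659 genes, and 0.05 was the threshold. Pairs of relatives and correlations were tested by exact permutation in Python 3.11.15. The limma fit was tested on simulated data, and the permutation of the pairs on fixed values with a known answer. Array weights used statmod 1.5.0 and figures matplotlib 3.10.9. Replicates are separate animals per the labels.

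The members, the gene lists, the tests and the alternatives were chosen with earlier results of these data known. Named genes are all members; in each pathway list those past the threshold and the 3 with the smallest p; the 3 genes most like Mlxipl, Srebf1, Thrsp and Nr1h3; Ucp1 and Deptor; others are marked in the text. The planned pair Nr1h3 and Nr1h2 could not be run because Nr1h2 had no probe set. Replicate numbers were checked as a pairing: same-numbered mice had correlations of their deviations from -0.264 to 0.102, so they were treated as unpaired. Alternatives left out each mouse, or FF replicate 1 and VV replicate 1 together, blocked on replicate number, rescaled the arrays, filtered low values, averaged probe sets, changed the eBayes settings, weighted arrays or used an adjusted p of 0.10.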

Additional observations from a re-analysis of the deposited data

Results flagged for a closer look

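In 100 groups of 5 mice, those of the named pathway genes, the measured regulators and the list levels, 8 values lay farther from the other mice of their group than Dixon's criterion allows, where chance gives about 1 in 20 groups. None was a value of the regulators themselves. In VV replicate 1, the mean level of the liver markers was 11.17 (other VV mice 6.68 to 7.81), that of the LXR targets 11.17 (10.46 to 10.55), that of the thyroid hormone list 8.56 (8.38 to 8.41) and that of the skeletal muscle markers 7.44 (6.90 to 7.00). In FF replicate 1, the mean level of the skeletal muscle markers was 9.05 (other FF mice 6.83 to 7.39). In VV replicate 2, the mean level of the leukocyte markers was 9.77 (other VV mice 9.36 to 9.46). In VV replicate 5, Mid1ip1 was 8.94 (other VV mice 8.52 to 8.59) and Smpdl3a was 11.41 (other VV mice 11.61 to 11.68).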

How the results depend on the processing

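The count of genes past the threshold, 148, moved to between 7 and 379 when single mice were left out, to 28 without FF replicate 1 and VV replicate 1, 5 with the replicate block, 601 with arrays centred on their median, 230 and 355 without genes below the 25th percentile or the median, 383 with array weights and 704 at an adjusted p of 0.10. The count of regulators past it, 1, ranged from 0 to 2 when single mice were left out; it was 0 with the replicate block, and 2 with arrays centred on their median, without genes below the median, with array weights and at an adjusted p of 0.10, where Srebf1 joined Mlxipl. With the replicate block the adjusted p of Mlxipl was 0.0926 (0.00662 to 0.0926 over all its alternatives). When single mice were left out, the Mlxipl and Mlxip pair difference ranged from 0.673 to 0.923 and that of Srebf1 and Srebf2 from 0.458 to 0.648, all past the threshold. The pair differences of 0.757 and 0.574 had an adjusted p of 0.0625 with the replicate block, the smallest that design allows, and were 0.727 and 0.518 without FF replicate 1 and VV replicate 1 (adjusted p = 0.0571). Srebf2, close to 0 throughout, was negative in 4 alternatives (down to -0.02 without VV replicate 1), and the other 8 measured regulators kept their sign in all of them. The number of arrays limits the precision.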
